A study of Mus musculus with 42 samples.

Results

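The data describe 10 genes of the RGS family (regulators of G protein signalling), Rgs2, Rgs4, Rgs5, Rgs7, Rgs8, Rgs9, Rgs10, Rgs14, Rgs16 and Rgs17, in 4 nuclei of the mouse hypothalamus. The members were found by matching these symbols to the Ensembl identifiers of the table, which lists 37907 genes. All 10 were listed and all 10 passed the filter on low values (an RPKM, or reads per kilobase of gene and per megaread of library, of at least 1 in at least 4 libraries), as did 33579 genes in all. Rgs2 was chosen by its measured values, a higher RPKM in fasted than in fed libraries of the paraventricular nucleus, so its values there are given as a description with no test. The other members were taken for their family, with earlier results of these data known, and 10 further RGS genes formed a separate list. Rgs14 reached 1 RPKM in 25 of 42 libraries and Rgs16 in 39, and the other members in all 42.

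The mice were wild-type adult C57/BL6 males. One set had food ad libitum (fed), and the other had none for 24 hours before dissection (fasted). The arcuate nucleus (ARC; 5 fed and 5 fasted libraries), ventromedial hypothalamus (VMH; 6 and 6), dorsomedial hypothalamus (DMH; 5 and 4) and paraventricular nucleus (PVN; 6 and 5) were cut from stained brain sections by laser-capture microdissection, and each gave 1 library of amplified RNA. Fed and fasted libraries come from different mice. According to the study's methods the nuclei were dissected from the same brains, but the labels do not say which libraries share a mouse, so the p-values of comparisons between nuclei treat as independent some libraries that share one. A captured nucleus holds neurons, glia and vessels together, and in such bulk RNA fewer cells of a type and less RNA per cell cannot be told apart.

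RGS proteins shorten signalling by receptors coupled to heterotrimeric G proteins. Their RGS domain speeds the hydrolysis of GTP by the alpha subunit, which returns the G protein to its inactive state. Members differ in the alpha subunits they act on and in the domains around the RGS domain. Rgs2, Rgs4, Rgs5, Rgs8 and Rgs16 are small proteins of the R4 subfamily, Rgs7 and Rgs9 are R7 members that are stable only when bound to the beta subunit Gnb5, Rgs10 and Rgs14 belong to the R12 group, and Rgs17 belongs to the RZ group. In hypothalamic neurons, peptide and monoamine receptors that act through these G proteins set excitability and hormone release.

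The depth of a library, estimated from the steps between low values and given as M for megareads, ranged from 1.33 to 13.2 M, with a mean of 4.57 M. This depth is a library size on the RPKM scale and not the number of reads sequenced, whose average in the study's methods is higher. Median estimated reads per library were 1272 for Rgs2, 812 for Rgs4 and 873 for Rgs5, but 76.4 for Rgs10, 34.1 for Rgs16 and 17.3 for Rgs14, so counting error is larger for the last 3 genes. The labelled nuclei carried their own marker genes. The summed level of the 5 PVN markers (Sim1, Oxt, Avp, Trh and Crh) was 4622 to 8700 RPKM in PVN libraries and at most 177 elsewhere, and that of the 3 VMH markers (Nr5a1, Fezf1 and Sox14) was 71.6 to 172 RPKM in VMH libraries and at most 10.3 elsewhere. Of 4 DMH markers, Prlh had the same value of 4.19 RPKM in every library. The study's methods report 3 batches of capture and library preparation, and that number was set in advance here. Which libraries formed each set called a batch here (10, 16 and 16 libraries) was inferred from shared no-read values. The batch means of log2 RPKM differed by at most 1.3e-06 for any gene of the table, and batch 1 held 0 fasted DMH libraries.

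Of the members, 6 lie on chromosome 1, and 2 adjacent pairs are close. In the annotation of build GRCm38 (GENCODE M21), Rgs2 lies at 143999338 to 144004161 on the minus strand, Rgs8 at 153653025 to 153700323 and Rgs16 at 153740349 to 153745468, both on the plus strand. Rgs16 starts 40.0 kb after the end of Rgs8. Further along, Rgs5 lies at 169655501 to 169695813 on the plus strand and Rgs4 at 169741477 to 169747642 on the minus strand, 45.7 kb apart, and Rgs7 lies at 175059087 to 175492500. Rgs10 is on chromosome 7, Rgs17 on chromosome 10, Rgs9 on chromosome 11 and Rgs14 on chromosome 13. Exons of Rgs16 overlap those of Gm28513 over 10.1% of their length, so its reads may be shared with that gene, since the counting was without strand.

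The upstream sequences of Rgs2, Rgs4 and Rgs5 are shown because Rgs2 is the member picked for its fasting change, Rgs4 is the member that passed a fasting test, and Rgs5 is its neighbour, whose mean was also lower in the fasted VMH. Each is read 5′ to 3′ on the strand of its gene from the RefSeq promoter table (GRCm38.p6), from 250 to 13 bases before the RefSeq start site, and the window stops there so that it holds no annotated exon of the gene. Capitals mark TGACG or its complement CGTCA, the core site of the cyclic AMP response element, and TATAAA or TTTATA, the TATA box; AGAACA and TGTTCT, the core site of the glucocorticoid receptor, were also searched, on both strands.
Rgs2, chr1:144004162-144004399, minus strand: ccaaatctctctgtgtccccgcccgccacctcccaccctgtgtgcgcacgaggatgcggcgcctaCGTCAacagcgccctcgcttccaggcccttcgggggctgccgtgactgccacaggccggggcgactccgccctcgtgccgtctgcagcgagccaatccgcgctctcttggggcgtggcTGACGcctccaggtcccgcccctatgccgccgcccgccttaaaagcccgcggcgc
Rgs4, chr1:169747655-169747892, minus strand: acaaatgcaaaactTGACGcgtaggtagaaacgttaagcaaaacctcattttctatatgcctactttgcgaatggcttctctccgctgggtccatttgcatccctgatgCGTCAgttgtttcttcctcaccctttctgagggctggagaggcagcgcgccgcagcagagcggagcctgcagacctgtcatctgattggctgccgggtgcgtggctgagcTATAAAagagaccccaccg
Rgs5, chr1:169655251-169655488, plus strand: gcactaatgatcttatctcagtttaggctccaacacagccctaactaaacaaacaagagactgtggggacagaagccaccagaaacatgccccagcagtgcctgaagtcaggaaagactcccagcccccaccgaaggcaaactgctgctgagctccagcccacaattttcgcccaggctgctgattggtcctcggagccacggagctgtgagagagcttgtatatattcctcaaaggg

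Rgs2 and Rgs4 each held 2 cyclic AMP core sites, and Rgs5 held 0. Those of Rgs2 began 185 and 67 bases before the start site, and those of Rgs4 began 236 and 141 bases before it. Of 32851 mouse promoter windows of the same length, 16.7% held at least 1 such core site. The share of windows with 2 was not counted. A TATAAA stood 31 bases before the start of Rgs4, and 12% of the windows held this motif on either strand. None of the 3 windows held the glucocorticoid core site, found in 15.4% of windows. The Rgs2 window was richer in G and C (71.8%) than that of Rgs4 (53.4%) or Rgs5 (52.9%), and no 2 matches overlapped. These matches describe letters in a window and not the binding of a factor.

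Rgs2, which acts mainly on Gq-type alpha subunits, was the most abundant member in fed ARC, fed VMH and in all fasted nuclei. In the fasted ARC its level was 62.5, 106, 97.7, 104 and 113 RPKM against 101, 98.6, 123, 96.0 and 94.3 RPKM in the fed ARC, and the groups overlapped. In the VMH it ran from 59.4 to 91.6 RPKM (median 80.2) in fasted and from 66.3 to 81.0 RPKM (median 71.0) in fed libraries, again with overlap. The change, fasted minus fed on the log2(RPKM + 1) scale used for all changes below, was -0.11 ± 0.13 (SE) in the ARC and 0.11 ± 0.12 in the VMH, neither beyond the spread between libraries (limma adjusted p = 1 each).

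The DMH held the lowest Rgs2 levels. Values were 41.0, 51.2, 38.4, 36.9 and 44.8 RPKM in fed and 44.9, 55.1, 53.6 and 52.1 RPKM in fasted libraries. All 4 fasted libraries were above the fed mean but the groups overlapped, and the change of 0.28 ± 0.14 passed the two-sided exact permutation test (p = 0.0397) but not the adjustment over all genes (limma adjusted p = 0.827).

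In the PVN, the contrast for which the gene was picked, fed libraries held 62.1 to 104 RPKM (median 73.0) and fasted libraries held 167, 147, 175, 176 and 156 RPKM. The groups did not overlap, and every fasted PVN library was above every library of any other group. The mean was 77.9 ± 16.2 (SD, n = 6) in fed and 164 ± 12.7 (SD, n = 5) in fasted libraries, and the fitted change was 1.09 ± 0.13, which was 0.78, 1.22 and 1.28 within batches 1, 2 and 3. Rgs2 thereby went from 21.2% ± 3.07 to 40.2% ± 2.75 (SD) of the summed RPKM of the 10 members, and the sum from 365 ± 22.2 to 410 ± 33.4 RPKM.

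**Figure D1:**
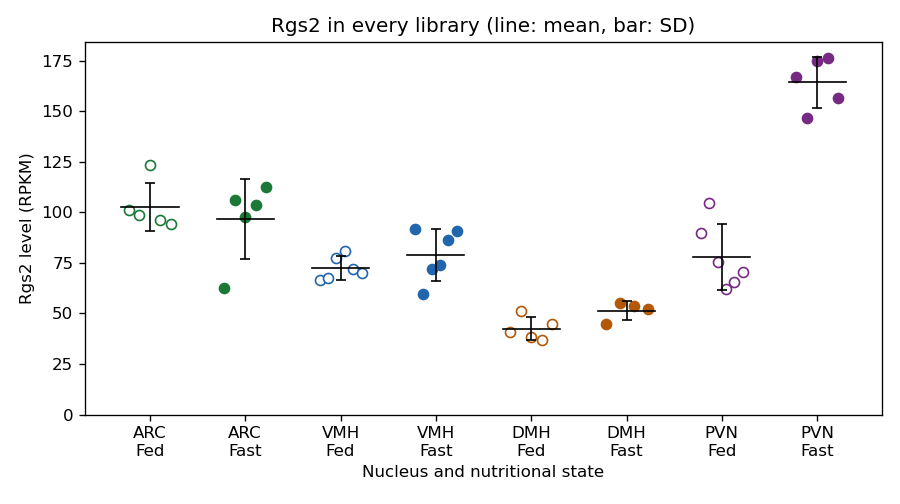
Level of Rgs2 in RPKM (vertical axis) in each of the 42 libraries by nucleus and nutritional state; open circles are fed and filled circles fasted libraries, lines are means and bars SD. The 5 fasted PVN libraries lie at 147 RPKM and above, and the DMH libraries at 36.9 to 55.1 RPKM.

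Levels of Rgs2 differed between the 3 nuclei that the choice of the gene did not use. Among fed libraries the ARC held 103 ± 11.9 RPKM, the VMH 72.4 ± 5.78 and the DMH 42.5 ± 5.74 (SD). Each neighbour in that order differed, by 0.50 ± 0.13 between ARC and VMH (limma adjusted p = 0.0112) and by 0.76 ± 0.13 between VMH and DMH (limma adjusted p = 0.000105). The test across the 3 nuclei gave a limma adjusted p of 4.18e-08 in fed and 0.000114 in fasted libraries, and 9.1% and 9.29% of all genes passed it. In fasted libraries the DMH again held less than the VMH, by 0.60 ± 0.14 (limma adjusted p = 0.00665), while ARC and VMH did not pass the threshold (difference 0.27 ± 0.13, limma adjusted p = 0.262). The fed PVN level of 77.9 RPKM lay between those of the ARC and the VMH. The fasting changes of Rgs2 in ARC, VMH and DMH did not differ beyond the spread (interaction of the 3 nuclei, limma adjusted p = 0.956), a test that 0% of all genes passed.

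Of the 10 members, Rgs4 alone passed the threshold (limma adjusted p under 0.1) in a fasting contrast that was tested. This was in the VMH, where 0.131% of all genes passed. In the other nuclei (ARC, DMH, PVN), 0 of 10, 0 of 10 and 0 of 9 tested members passed by limma, where 0.0566%, 0.0238% and 0.0715% of all genes did. At an unadjusted limma p under 0.05 the counts were 0, 3, 0 and 2 in the ARC, VMH, DMH and PVN, against 7.5%, 7.31%, 6.48% and 5.53% of all genes, shares that also stand behind the unadjusted counts of the lists below. By the exact permutation test, p was under 0.05 for 8 of 39 pairs of member and nucleus, made up of 0 for the ARC, 3 for the VMH, 2 for the DMH and 3 for the PVN, against 4.02%, 4.39%, 3.74% and 4.18% of all genes. Libraries of fed and fasted mice did not overlap for 2 of these 39 pairs, and over all genes this share was 0.742% for the ARC, 0.277% for the VMH, 1.15% for the DMH and 0.402% for the PVN. The median change of the members was -0.12, -0.05, 0.07 and -0.15 in the 4 nuclei in that order (the PVN without Rgs2), against a median of 0 over all genes in each.

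**Figure D2:**
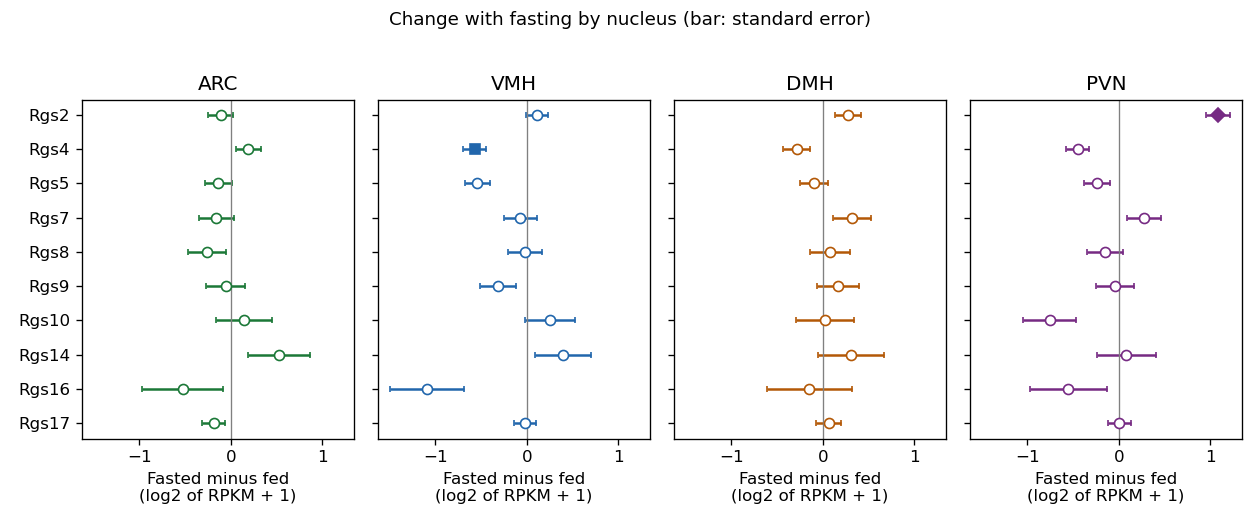
Change of each member with fasting in the 4 nuclei as the difference of mean log2(RPKM + 1), with bars of 1 standard error from the fit of 42 libraries. The filled square is Rgs4 in the VMH (-0.57), the change past the threshold, the filled diamond is Rgs2 in the PVN (1.09), which was not tested, and open circles did not pass.

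Rgs4, a brain-enriched regulator of Gi- and Gq-coupled receptors, was lower in fasted libraries of the VMH. Levels ran from 41.7 to 53.0 RPKM (median 45.0) in fed and from 24.8 to 37.7 RPKM (median 32.6) in fasted libraries, and the groups did not overlap. The mean went from 46.5 ± 5.02 to 31.2 ± 5.22 RPKM (SD, n = 6 each), a change of -0.57 ± 0.12 (limma adjusted p = 0.0705; two-sided exact permutation p = 0.00216, the smallest that 6 against 6 libraries allow). The change was negative in each batch (-0.62, -0.80 and -0.29). The call was lost, with adjusted p from 0.110 to 0.165, when 1 of 7 libraries was left out (fed 1, 2, 3 or 4, or fasted 1, 3 or 4), and in fits with array weights, the inferred batch as a covariate or VMH libraries alone.

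The same gene had non-overlapping groups in the PVN. Fed libraries held 70.0 to 87.7 RPKM (median 72.7) and fasted libraries held 57.8, 41.8, 62.3, 55.0 and 62.6 RPKM, so that every fasted library was below every fed one. The mean went from 76.2 ± 7.14 to 55.9 ± 8.5 RPKM (SD), a change of -0.45 ± 0.13 that was negative in each batch (-0.46, -0.58 and -0.28). The two-sided exact permutation p was 0.00216, the smallest this design allows, but the limma adjusted p was 0.381. In these libraries the level of Rgs2 was higher and that of Rgs4 lower after fasting.

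In the DMH, Rgs4 was at 59.4, 71.4, 52.4, 62.9 and 54.0 RPKM in fed and 52.5, 57.8, 39.9 and 46.4 RPKM in fasted libraries, which overlapped (change -0.29 ± 0.14, limma adjusted p = 0.790). In the ARC it was at 85.7, 77.3, 53.2, 60.6 and 59.7 RPKM in fed and 62.4, 67.4, 72.1, 83.8 and 98.4 RPKM in fasted libraries, and the change had the other sign (0.19 ± 0.14, limma adjusted p = 0.913). The difference of the change between the 4 nuclei had an unadjusted p of 0.00137 in limma's F test and an adjusted p of 0.700. Such interactions passed for 0 of 9 tested members by limma and for 1 of 9 at an unadjusted p under 0.05, and for 0.00596% of all genes.

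Between nuclei, Rgs4 was lowest in the VMH in both states. In fed libraries the order was PVN, ARC, DMH and VMH (76.2, 67.3, 60.0 and 46.5 RPKM), and no neighbours in it passed the threshold, but the VMH was below the ARC by 0.51 ± 0.13 (limma adjusted p = 0.00947) and below the PVN by 0.70 ± 0.12 (limma adjusted p = 9.95e-05). In fasted libraries the order was ARC, PVN, DMH and VMH, and the ARC exceeded the VMH by 1.27 ± 0.13 (limma adjusted p = 3.77e-09). The ARC then exceeded the PVN too, by 0.45 ± 0.14 (limma adjusted p = 0.0629).

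Rgs5, known as a marker of pericytes and other mural cells of vessels, neighbours Rgs4 on the chromosome. In the VMH its fed libraries held 36.2 to 74.5 RPKM (median 45.4) and its fasted libraries 24.0 to 37.8 RPKM (median 36.1). All 6 fasted libraries were below the fed mean of 48.8 ± 13.2 RPKM, but the groups overlapped. The change was -0.54 ± 0.13 (limma adjusted p = 0.140; two-sided exact permutation p = 0.00866). It was -1.17 within batch 1, which holds the fed library at 74.5 RPKM, and -0.32 and -0.13 within batches 2 and 3, and it was -0.41 without that library.

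Ranges of the summed vessel markers lay lower in the fasted than in the fed VMH but overlapped. The summed level of 8 pericyte and mural markers (Pdgfrb, Kcnj8, Abcc9, Vtn, Cspg4, Higd1b, Notch3 and Acta2) was 30.4 to 56.5 RPKM in fed and 21.3 to 43.3 RPKM in fasted VMH libraries, and that of 6 endothelial markers was 27.5 to 68.1 and 24.1 to 50.8 RPKM. The fed library with the highest Rgs5 also had the highest sum of both lists (56.5 and 68.1 RPKM) among the 12 VMH libraries. That library was likewise the highest of the 12 for summed astrocyte, oligodendrocyte and microglial markers (122, 294 and 59.2 RPKM). It was not the highest for neuronal markers (1155 RPKM). Without this library the highest fed endothelial sum was 52.6 RPKM, in library 2. By limma, 0 of 8 mural and 0 of 6 endothelial markers passed the threshold in this contrast (1 and 2 at an unadjusted p under 0.05). The part of vessel cells or of other cells in the Rgs5 values was not tested.

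The highest Rgs5 levels were in the PVN. Fed libraries there held 87.6 to 109 RPKM (median 105) and fasted libraries 99.4, 71.8, 93.2, 69.7 and 98.0 RPKM. Apart from the VMH library at 74.5 RPKM, the other 30 libraries from outside the PVN were at 53.5 RPKM or below. The fed PVN mean of 101 ± 9.0 RPKM was 2.66 times that of the ARC (38.1 ± 3.81 RPKM), and it exceeded ARC, VMH and DMH by 1.39 ± 0.14, 1.07 ± 0.13 and 1.13 ± 0.14 (limma adjusted p = 6.89e-09, 3.00e-07 and 9.81e-07). ARC, VMH and DMH did not pass the threshold against each other in either state. The summed endothelial markers were likewise highest in the PVN (fed 63.4 to 92.7 RPKM, against 23.9 to 35.9 RPKM in the fed ARC). The summed mural markers were at 31.6 to 53.1 RPKM in the fed PVN and 30.4 to 56.5 RPKM in the fed VMH. Of the mural markers, Pdgfrb, Kcnj8, Abcc9, Vtn and Notch3 had their highest fed mean in the PVN. Cspg4 and Higd1b had theirs in the DMH and Acta2 in the VMH (mean 16.7 RPKM, against 5.78 RPKM in the fed PVN). The part of vessel content in the Rgs5 difference between nuclei was not tested.

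**Figure D3:**
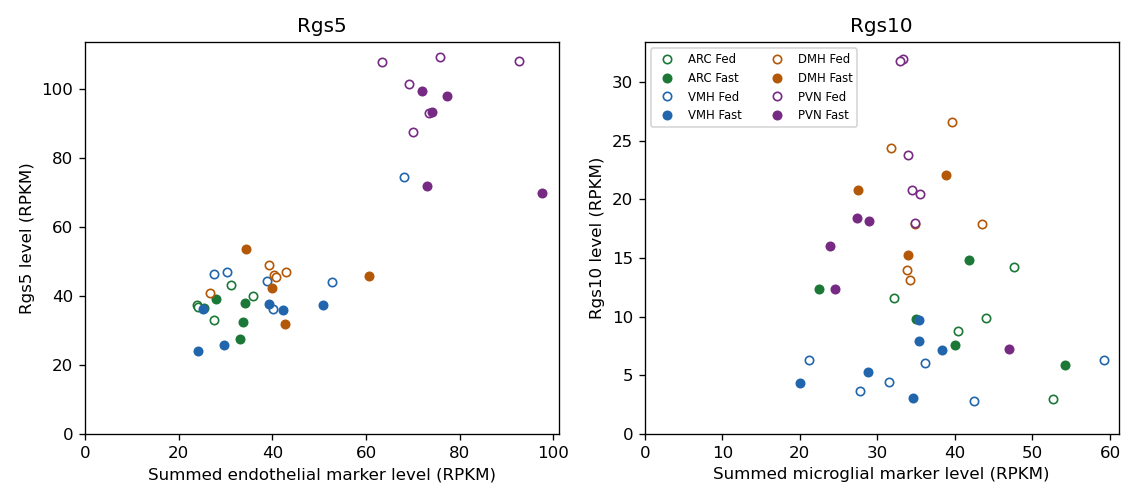
Level of Rgs5 against the summed level of 6 endothelial markers, and of Rgs10 against that of 6 microglial markers, in RPKM, with 1 point for each of the 42 libraries (open fed, filled fasted). All PVN libraries lie at 69.7 RPKM or more for Rgs5 and 63.4 RPKM or more for endothelial markers, where 1 fed VMH library (74.5 and 68.1 RPKM) lies among them, and fed PVN libraries span 18.0 to 31.9 RPKM of Rgs10 at 32.9 to 35.5 RPKM of microglial markers.

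Rgs8, a regulator of Gi-coupled signalling known from cerebellar Purkinje cells, had the widest ratio of means between fed nuclei among the members. Fed DMH libraries held 15.5, 22.3, 22.1, 17.1 and 17.4 RPKM and fed ARC libraries 3.65, 3.43, 4.97, 3.38 and 3.46 RPKM, a 5.0-fold ratio of means with no overlap. The PVN (10.9 ± 2.06 RPKM) and VMH (10.2 ± 3.92 RPKM, SD) lay between and did not pass against each other (limma adjusted p = 0.964). Each of the other 5 pairs of nuclei passed, in fed and in fasted libraries. Fasting moved Rgs8 by -0.26 to 0.08 in the 4 nuclei, with no limma adjusted p below 0.973.

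Rgs16, an R4 member that acts on Gi- and Gq-type subunits, was low and variable. In the VMH its fed libraries held 5.21 to 15.3 RPKM (median 10.8) and its fasted libraries 0.813 to 10.6 RPKM (median 4.39), 5 of 6 below the fed mean. The change of -1.09 ± 0.40 was the largest drop of any member and had an exact permutation p of 0.0195, but a limma adjusted p of 0.450. It was negative in each batch (-1.68, -0.80 and -0.79), and the change was also below 0 in the other nuclei (-0.53, -0.15 and -0.55 in ARC, DMH and PVN, limma adjusted p = 1 each). Single libraries moved these values, to -0.15 in the ARC without fed library 3, to -0.27 in the PVN without fed library 2 and to 0.11 in the DMH without fed library 1. Its fed order was VMH, DMH, ARC and PVN (10.2, 7.40, 4.69 and 4.0 RPKM, where fed ARC library 3 was at 12.2 and the others at 0.692 to 3.81 RPKM, and fed PVN library 2 at 10.4 and the others at 1.60 to 4.35 RPKM), with a limma adjusted p of 0.0819 across nuclei that was lost in 13 of 22 fits without 1 library. Of the 6 fed pairs, those of the VMH with the ARC and with the PVN passed (limma adjusted p = 0.0965 and 0.0411).

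Of the R7 members, Rgs7 was abundant in all 4 nuclei. Fed means of the ARC and VMH were 51.9 ± 8.29 and 50.8 ± 13.1 RPKM and those of the DMH and PVN 34.6 ± 3.48 and 32.9 ± 4.68 RPKM (SD), and the PVN was below the ARC by 0.64 ± 0.19 and below the VMH by 0.58 ± 0.18 (limma adjusted p = 0.0531 and 0.0352). In fasted libraries 0 of 6 pairs passed by limma, and the test across nuclei gave a limma adjusted p of 0.978. The 5 fasted PVN libraries (39.9, 39.0, 48.8, 36.1 and 36.4 RPKM) were all above the fed mean of 32.9 RPKM, and so were the 4 fasted DMH libraries (39.2, 36.5, 46.9 and 52.2 RPKM) above the fed mean of 34.6 RPKM. These differences of 0.28 ± 0.19 and 0.32 ± 0.21 had exact permutation p-values of 0.0325 and 0.0476 and limma adjusted p-values of 1 and 0.992, and the groups overlapped in both nuclei.

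Rgs9, the R7 member of photoreceptors and the striatum, was highest in the ARC. Fed ARC libraries held 17.6, 13.7, 13.0, 22.0 and 11.5 RPKM against 4.63 to 12.9 RPKM in all other fed libraries, so that 1 ARC library, at 11.5 RPKM, lay within the range of the others. The ARC exceeded the VMH, DMH and PVN by 0.81 ± 0.21, 0.97 ± 0.21 and 0.74 ± 0.21 (limma adjusted p = 0.00989, 0.00674 and 0.0342), and did so again in fasted libraries (limma adjusted p = 0.000400, 0.0791 and 0.0525). The other 3 nuclei did not pass against each other. Fasting moved Rgs9 by -0.32 to 0.17 (lowest limma adjusted p = 0.703).

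Rgs10, an R12 member expressed by microglia and by neurons, was highest in PVN and DMH. Fed PVN libraries held 18.0 to 31.9 RPKM (median 22.3), fed DMH libraries 24.4, 26.6, 14, 17.9 and 13.1 RPKM and fed VMH libraries 2.81 to 6.34 RPKM (median 5.24), so that neither of the first 2 groups overlapped the VMH. The PVN mean was 4.95 times the VMH mean, a difference of 2.11 ± 0.28 (limma adjusted p = 6.40e-07), and the DMH exceeded the VMH by 1.76 ± 0.29 (limma adjusted p = 7.52e-05). PVN and DMH did not pass against each other (limma adjusted p = 0.819). The sum of the 6 microglial markers was 32.9 to 35.5 RPKM in the fed PVN, 31.8 to 43.5 RPKM in the fed DMH and 21.2 to 59.2 RPKM in the fed VMH. The part of microglia in the Rgs10 difference between nuclei was not tested.

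In the fasted PVN, Rgs10 was at 7.21, 16, 18.1, 12.4 and 18.4 RPKM, all below the fed mean of 24.4 ± 6.01 RPKM and with 2 libraries inside the fed range. The change was -0.76 ± 0.29, negative in each batch (-1.31, -0.66 and -0.72), with an exact permutation p of 0.00866 and a limma adjusted p of 0.749. The summed microglial markers were at 32.9 to 35.5 RPKM in fed PVN libraries. In the fasted ones, library 1 was at 47.0 RPKM and the others were at 23.9 to 29.0 RPKM. All 6 markers had a change below 0 (median -0.18), as had 46.6% of all genes. By limma 0 of 6 passed (0 also at an unadjusted p under 0.05). The part of microglia in the Rgs10 change was not tested.

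Rgs14, the R12 member that also binds small GTPases and is known from hippocampal area CA2, was highest in the VMH. Of the 25 libraries at 1 RPKM or above, 12 were VMH libraries and 5 were the fasted ARC libraries. Fed VMH libraries held 1.14 to 8.09 RPKM (median 3.55) and fasted ones 1.45 to 9.93 RPKM (median 4.81). Fed means were 1.23 RPKM in the ARC, 0.927 in the PVN and 0.827 in the DMH. The value of a library without reads, as estimated from gene length, was 0.258 RPKM. The highest Rgs14 library elsewhere was at 2.88 RPKM, so the groups overlapped with the lower VMH libraries. The VMH exceeded ARC, DMH and PVN by 1.06 ± 0.32, 1.27 ± 0.32 and 1.23 ± 0.31 in fed libraries (limma adjusted p = 0.0394, 0.0150 and 0.00719) and by 0.93 to 1.54 in fasted ones. The within-VMH spread was wide, with SD of 2.66 and 3.25 RPKM in fed and fasted libraries.

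Rgs17, the RZ member that acts on Gz and Gi, had the smallest ratio of means between fed nuclei among the members. Group means ran from 27.2 ± 3.80 RPKM in the fed PVN to 45.6 ± 12.9 in the fasted DMH, where 1 library was at 64.3 RPKM and the other 3 at 34.7, 40.2 and 43.2. Fed means were 42.4 in the DMH, 40.5 in the VMH, 35.9 in the ARC and 27.2 in the PVN, and the PVN was below each of the other nuclei, by 0.69 ± 0.14 in fasted DMH, 0.52 ± 0.12 in fasted VMH, and 0.63 ± 0.12, 0.55 ± 0.12 and 0.39 ± 0.12 in fed DMH, VMH and ARC. The fasted ARC and PVN did not pass against each other (0.20 ± 0.13, limma adjusted p = 0.632). Fasting moved it by -0.19 to 0.06, with no limma adjusted p below 0.893.

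**Figure D4:**
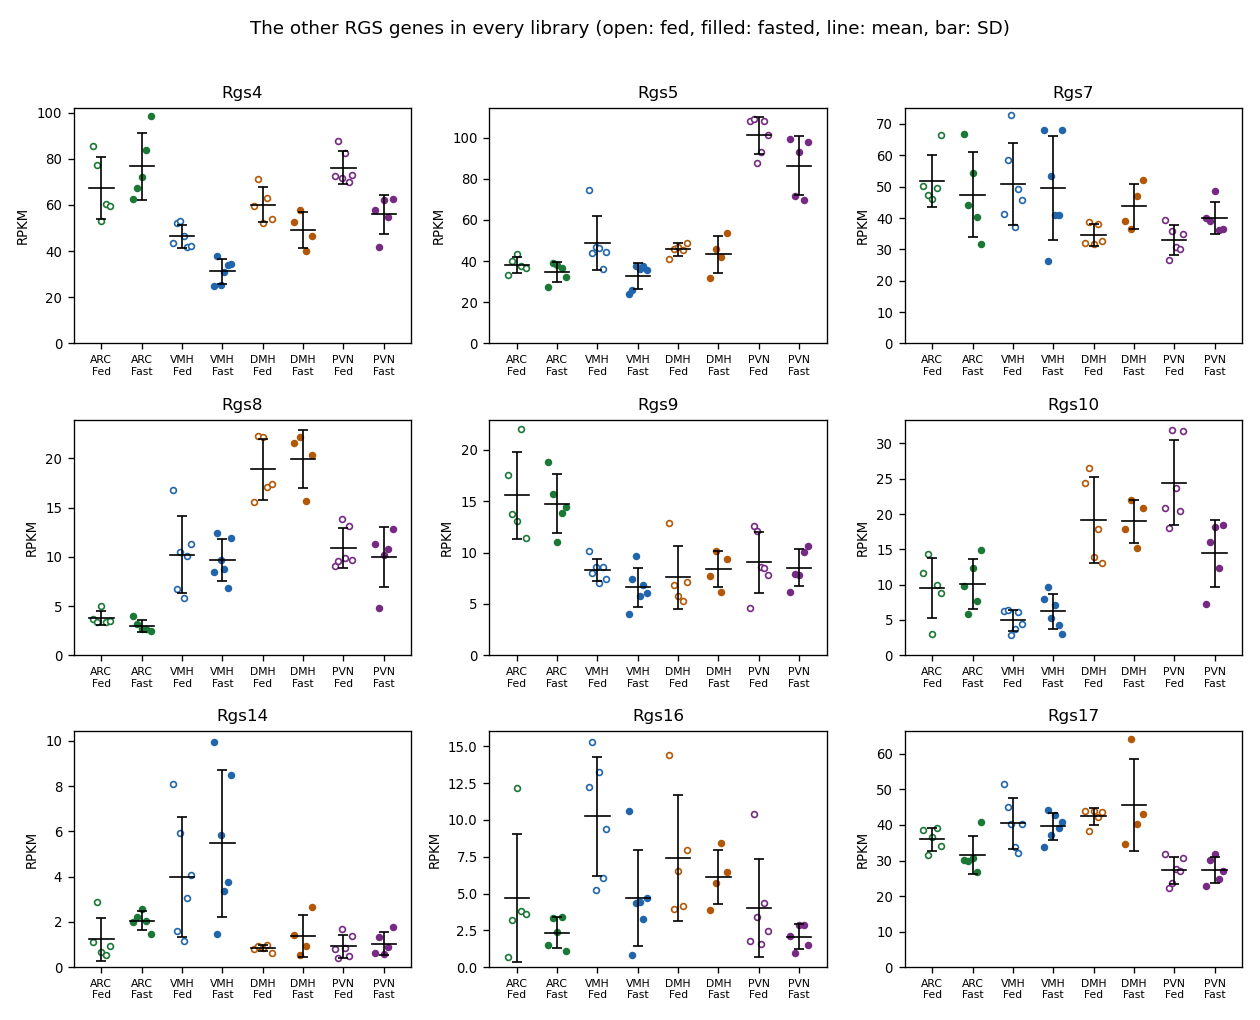
Level in RPKM of the 9 members other than Rgs2 in each of the 42 libraries, by nucleus and nutritional state (open fed, filled fasted, lines mean, bars SD, each panel with its own axis from 0). Rgs5 and Rgs10 were highest in the fed PVN (means 101 and 24.4 RPKM), Rgs8 in the DMH, Rgs9 in the ARC and Rgs14 and fed Rgs16 in the VMH.

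Most members differed between nuclei. The test across the 4 fed nuclei passed for 9 of 9 tested members by limma, where 12.4% of all genes passed, and that across fasted nuclei for 7 of 9, where 11.9% did, with Rgs7 and Rgs16 as the exceptions. A count added before scaling let genes with few or no reads pass the filter, as Prlh did at 4.19 RPKM in every library. The shares over all genes, here and elsewhere, include such genes, while most members were well above that level. Of 57 pair comparisons of members and nuclei in each state, 30 passed in fed and 26 in fasted libraries. In fed libraries 6 members passed between ARC and VMH (7.9% of all genes), 4 between ARC and DMH (2.79%), 6 between ARC and PVN (4.13%), 4 between VMH and DMH (5.24%), 7 between VMH and PVN (9.84%) and 3 between DMH and PVN (3.42%). The counts for the same pairs in fasted libraries, in that order, were 4 (8.91%), 5 (3.21%), 4 (4.19%), 5 (3.94%), 5 (9.24%) and 3 (3%). Pairs of Rgs2 with the PVN are left out of these counts. The fed ratio of highest to lowest mean ran from 1.56 for Rgs17 to 5.0 for Rgs8, and each of the 4 nuclei had the highest fed mean of at least 2 members: Rgs2, Rgs7 and Rgs9 in the ARC, Rgs14 and Rgs16 in the VMH, Rgs8 and Rgs17 in the DMH, and Rgs4, Rgs5 and Rgs10 in the PVN. The highest did not pass against the next for Rgs4 (PVN and ARC, limma adjusted p = 0.703) or Rgs10 (PVN and DMH, limma adjusted p = 0.819). Nor did it for Rgs7 (ARC and VMH) or Rgs17 (DMH and VMH). Of the neighbours on chromosome 1, Rgs4 and Rgs5 both had their highest fed mean in the PVN, while Rgs8 and Rgs16 had theirs in the DMH and the VMH (Rgs16 VMH against DMH, limma adjusted p = 0.803) and both had their highest fasted mean in the DMH.

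The makeup of the summed RGS level, which compares genes per length in RPKM, differed by nucleus. In the fed ARC, Rgs2 made up 31.0% ± 3.18 of the sum of 331 RPKM and Rgs4 20.3% ± 3.73. In the fed PVN, Rgs5 was the largest share (27.8% ± 2.11), and in the fed DMH Rgs4 was (21.5% ± 1.69), with Rgs2 at 15.2% ± 1.39 (SD). In the VMH, Rgs4 and Rgs5 were at 15.7% ± 1.47 and 16.3% ± 3.25 of the sum in fed libraries and at 11.9% ± 2.83 and 12.5% ± 2.36 in fasted ones. Rgs14 was at most 1.99% of the sum in any group mean.

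The genes around the members in the same pathway were tested in the same fit, and none passed in a fasting contrast. Of 10 other RGS genes, 8 passed the filter (Rgs1 and Rgs18 did not), and 0 of 8 passed in each of the 4 fasting contrasts by limma, with 0, 0, 0 and 1 at an unadjusted p under 0.05 in ARC, VMH, DMH and PVN. The same was true of 5 RGS partners (0 called; 1, 1, 0 and 0 at an unadjusted p under 0.05), of 13 G protein alpha subunits (0 called; 1, 3, 1 and 0) and of 17 effectors, the phospholipase C beta isoforms, adenylyl cyclases and G protein-gated potassium channels (0 called; 2, 3, 0 and 1). Median changes of these lists lay between -0.17 and 0.13.

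Across fed nuclei, 2 of 8 other RGS genes, 2 of 5 partners, 6 of 13 alpha subunits and 7 of 17 effectors passed by limma, against 12.4% of all genes. The genes named here were among the lowest p of their lists and were chosen after their values were seen. Rgs11, another R7 member, was at 8.71 RPKM in the fed VMH and 3.57 to 4.90 RPKM in the other fed nuclei (limma adjusted p = 0.00313). Rgs7bp, which anchors R7 complexes at the membrane, was at 12.3 RPKM in the fed VMH and 5.60 RPKM in the fed ARC (limma adjusted p = 5.14e-05). Gnai1, an inhibitory alpha subunit, was highest in the fed ARC (170 RPKM) and lowest in the fed PVN (79.9 RPKM; limma adjusted p = 2.11e-09), whereas Gnas, the stimulatory one, was highest in the fed PVN (112 RPKM) and lowest in the fed VMH (61.1 RPKM; limma adjusted p = 6.28e-09). Plcb4, a phospholipase C downstream of Gq, was at 46.7 RPKM in the fed VMH and 17.9 RPKM in the fed ARC (limma adjusted p = 9.50e-14).

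Activity-regulated genes, which neurons induce within minutes to hours of firing, formed the last list. Of 16 such genes, including Fos, Egr1, Arc and Nr4a1, 0 passed in any of the 4 fasting contrasts by limma, with 3, 2, 0 and 4 at an unadjusted p under 0.05. In the PVN their median change was -0.14, and 13 of 16 were below 0, as were 46.6% of all genes. The part of neuronal activity in the Rgs2 values was not tested. Fos was at 9.49 RPKM in fed and 6.56 RPKM in fasted PVN libraries and Egr1 at 58.5 and 35.0 RPKM, while Npas4 was at 1.93 and 4.55 RPKM and Nr4a1 at 11.4 and 12.4 RPKM, all 4 named after their values were seen. Between fed nuclei 12 of 16 passed, led by Fosl2, at 20.8 RPKM in the PVN and 1.86 RPKM in the VMH (limma adjusted p = 2.85e-09).

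Among the 8 genes whose levels were most like those of Rgs2 were Gpx3, Sv2c, Nucb1, Tusc3, Sst and Kcnd3, by Pearson's r of log2(RPKM + 1) over the 42 libraries among 13744 genes with a mean of at least 5 RPKM. Their r ran from 0.671 (Gpx3) to 0.654 (Kcnd3), as a description over libraries that share groups. These include the PVN libraries by whose values Rgs2 was picked, so that likeness to Rgs2 itself favours genes with higher levels in the fasted PVN. After the group means were taken away, r was 0.39 for Gpx3, 0.51 for Tusc3 and 0.32 for Sv2c and between -0.21 and 0.15 for Nucb1, Sst and Kcnd3. Gpx3, a secreted glutathione peroxidase, was at 310 RPKM in the fed ARC, 149 in the fed DMH and 261 and 268 in the fed and fasted PVN, so that it had the fed order of the nuclei that Rgs2 had, with like levels in fed and fasted PVN. Sv2c, a synaptic vesicle protein, was at 10.8 ± 2.59 RPKM in the fed and 22.5 ± 4.78 RPKM (SD) in the fasted PVN.

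Among marker lists, Aqp4, the water channel of astrocytes, passed in the VMH. It fell from 20.0 ± 5.0 to 9.89 ± 2.05 RPKM (SD, n = 6 each; change -0.94, limma adjusted p = 0.0477) and was 1 of 5 astrocyte markers that did so. The sum of the 5 was 84.1 to 122 RPKM in fed and 68.7 to 97.9 RPKM in fasted VMH libraries. Neuronal markers (Snap25, Syt1, Rbfox3, Stmn2 and Nefl) summed to 1155 to 1360 RPKM in fed and 1112 to 1449 RPKM in fasted VMH libraries, and 0 of 5 passed by limma (0 at an unadjusted p under 0.05). The part of cell makeup in the drop of Rgs4 was not tested. In the PVN, Ppp1r17, listed as a DMH marker, rose from 18.9 ± 5.79 to 47.3 ± 13.5 RPKM (SD; limma adjusted p = 0.0345), while the other DMH markers Npvf and Grp were at 1.82 and 1.43 RPKM and at 3.05 and 3.35 RPKM in fed and fasted PVN libraries. In the ARC, Agrp rose from 133 ± 32.9 to 409 ± 108 RPKM (SD; limma adjusted p = 0.0613).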

How the data were processed

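RNA-seq of laser-captured hypothalamic nuclei was analysed in 42 libraries, grouped by their labels. The methods call the libraries of a group biological replicates, but the labels do not tie a library to a mouse. The authors amplified total RNA with the Ovation system, sequenced single-end reads without strand and mapped them to GRCm38 with TopHat. The submitters' processing notes name CASAVA 1.7, TopHat2 2.0.11, Cufflinks 2.2.1, edgeR and limma, and the methods state that outlier samples were removed. The authors deposited RPKM values, 1 table for all libraries. No value was 0, because a count had been added before scaling, and the means of the inferred batches were equal for every gene to within 1.3e-06 on the log2 scale, so that batch means had been removed, and neither step is stated in the sources used here. Whole reads were recovered for 97.7 to 98.9% of low values, which gave the depth of each library, up to a scale from gene lengths that matched for 75.4% of genes. Intervals of counts were not used, since reads without molecular identifiers are not independent molecules.

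Log2(RPKM + 1) was fitted with limma 3.58.1 (R 4.3.3; trend, two-sided) over 8 group means of all 42 libraries, for genes of at least 1 RPKM in at least 4 libraries, with Benjamini-Hochberg adjustment over 33579 genes and a threshold of 0.1. A count model was not used, because the values are RPKM. Single fasting changes also had a two-sided exact permutation test. The main fit and this test had no batch term, so their p-values do not allow for the removed batch means. Groups were spread unevenly over the inferred batches, with 1 fasted and 2 fed PVN libraries in batch 1. Fold changes on this scale understate those of low genes. Alternatives were pseudocounts of 0.1 and 5, no or a stricter filter, array weights, the inferred batch, a replicate block, leaving out each library, and fits on fewer groups. Named were the 10 members, up to 3 called genes of each list in a fasting contrast, and the 8 genes most like Rgs2, of which 2 are not reported here. The members and lists were chosen with earlier results of these data known. Gene positions are from GENCODE M21, and promoters were matched by symbol for 9 of 10 members (Rgs14 had none) in the RefSeq table.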

Additional observations from a re-analysis of the deposited data

Results flagged for a closer look

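Of 80 combinations of member and group, 10 held 1 library whose gap to its nearest neighbour over the range of the group exceeded Dixon's critical value for groups of that size (the gap was 0.689 to 0.832 of the range in these 10). For normally distributed values, chance alone gives such gaps in about 1 in 20 groups. The rate for RPKM values was not computed, and no excess over it was tested. Of the 10, 5 are in the fed ARC. Library 3 there was the highest for Rgs2 (123.4 RPKM, the others 94.3 to 101), Rgs8 (4.969 RPKM, the others 3.38 to 3.65) and Rgs16 (12.17 RPKM, the others 0.692 to 3.81). Library 5 of that group was the highest for Rgs7 (66.38 RPKM, the others 45.9 to 50.2), and library 2 for Rgs14 (2.876 RPKM, the others 0.554 to 1.12). In the fed VMH, library 1 was apart for Rgs5 (74.54 RPKM, the others 36.2 to 47.0). Its estimated depth was 2.02 M (megareads).

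Library 2 of the fed PVN, at 1.88 M, was apart for Rgs16 (10.44 RPKM, the others 1.60 to 4.35). Library 1 of the fed DMH was apart for Rgs9 (12.85 RPKM, the others 5.26 to 7.17). For Rgs17, library 5 of the fasted ARC stood above its group (40.74 RPKM, the others 26.8 to 30.8) and library 2 of the fed DMH below it (38.27 RPKM, the others 42.4 to 44.0).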

How the results depend on the processing

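The count of members that passed in the VMH fasting contrast, 1 of 10, was 0 with array weights, with the inferred batch as covariate, with the replicate block and in VMH libraries alone, and 0 to 2 when 1 library was left out. The cause was not tested. Rgs4 kept its direction there in every fit run, with changes of -0.63 to -0.51. Its adjusted p was 0.119 with array weights, 0.104 with the batch covariate, 0.372 with the replicate block and 0.531 in VMH libraries alone. The call of Rgs5 in the VMH was gained without fed library 5 (limma adjusted p = 0.0775). Counts of members that differed between nuclei stayed at 8 or 9 of 9 in fed and 7 of 9 in fasted libraries under the settings other than leaving out a library, and no change of direction of a called result was seen. Over all genes, the calls in the ARC, VMH, DMH and PVN contrasts (19, 44, 8 and 24) became 40, 16, 56 and 141 with array weights, 3, 0, 5 and 16 with the replicate block, and 0, 1, 0 and 3 in the libraries of each nucleus alone. They became 24 in the VMH with the batch covariate, 8 in the ARC with a pseudocount of 0.1, 41 in the PVN with a pseudocount of 5, and 5 in the DMH with the stricter filter. Without 1 library they ran from 6 to 31 in the ARC, 16 to 64 in the VMH, 6 to 89 in the DMH and 11 to 48 in the PVN. The 2 genes with an interaction became 1, 6, 1, 8 and 0 with pseudocounts of 0.1 and 5, the stricter filter, array weights and the block. Of 20 same-numbered fed and fasted pairs, the correlation of deviations was over 0.1 in 0. Removal of batch means and group means lowers such correlations within a batch. These values therefore cannot show whether the replicate numbers pair the libraries. The labels give no such pairing, and the main fit has no block. Estimated depth of 1.33 to 13.2 M (megareads) limits what can be said of Rgs14 and Rgs16, whose lowest libraries held about 1.10 and 1.67 estimated reads.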
